A study of Mus musculus with 4 samples.

Results

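The genes described here are the ligands and receptors of the tumor necrosis factor (TNF) superfamily whose mouse symbols begin with Tnfsf or Tnfrsf and a digit. They were compared between ID8G and GO2 mouse ovarian cancer (OC) cells. The members were found through the RefSeq accession that the array gives for each probe, which yielded 30 genes, 10 ligands with 12 probes and 20 receptors with 31 probes, of 22911 genes named in this way. No probe was found for Tnfsf13. ID8G cells are ID8 cells, a line derived from C57BL/6 mouse ovarian surface epithelium, that were infected with a retrovirus for GFP and sorted for GFP. GO2 cells descend from ID8G cells through 2 rounds of intraperitoneal injection into female C57BL/6 J mice aged 7 to 9 weeks, each followed by sorting of GFP-positive cells without CD45 from omental tumors and by culture. Both lines therefore carry GFP and differ by the passage through mice, sorting and any drift in culture, which cannot be told apart here. The methods give a medium for ID8 cells and none separately for GO2 cells, and name no further treatment of either line for the arrays. RNA of each line was measured on 2 one-color Agilent arrays, 4 in all. Nothing states that the 2 arrays of a line came from separate cultures, so p-values measure only the spread between these arrays, which may be technical. GO2 is a single derived line, and the number of tumors pooled into it is not given in the sources used here.

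TNF superfamily ligands are mostly trimeric proteins anchored in the cell membrane, from which some are shed by proteases. Their receptors bind them through cysteine-rich repeats and fall into those with a cytoplasmic death domain, which can assemble caspase-activating or NF-kappa-B-activating complexes, those without one, which recruit TRAF adaptors, and decoys, which bind ligand without passing on a full signal. In tumors, TRAIL (Tnfsf10), TNF and Fas ligand are known for killing cells through death domain receptors, whereas 4-1BB ligand, OX40 ligand and GITR ligand are known as costimulators of lymphocytes.

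The promoters of 3 genes described below are shown as the sequence before and around their annotated starts, since the array itself reads RNA only. Of the 3, Tnfrsf25 alone differed by at least 2-fold with both lines well above background. No window was given for Tnfsf9. The windows run from 250 bases before to 50 bases after an annotated start, read 5′ to 3′ on the strand of the gene, and come from RefSeq on GRCm38.p6. Tnfrsf25 has 2 annotated starts, at chr4:152115684-152115983 and chr4:152116093-152116392, both on the plus strand. Tnfrsf23 lies at chr7:143685826-143686125 on the minus strand. Ltb, a ligand of the same family with another symbol, lies at chr17:35194257-35194556 on the plus strand. Capitals mark matches on either strand to 1 of 4 motifs, which were chosen after the windows had been seen. The GC box was searched as GGGCGG. The letters of the TATA box were TATAAA. A kappa-B site was taken as GGACTTTCC. The AP-1 site, which none of the printed windows holds, was searched with the letters TGACTCA.
Tnfrsf25 first start: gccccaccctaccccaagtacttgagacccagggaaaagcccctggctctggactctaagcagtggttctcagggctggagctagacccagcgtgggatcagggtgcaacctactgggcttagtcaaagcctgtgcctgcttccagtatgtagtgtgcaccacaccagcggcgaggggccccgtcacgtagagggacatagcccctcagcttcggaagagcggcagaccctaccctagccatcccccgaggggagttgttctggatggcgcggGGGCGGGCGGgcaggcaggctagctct
Tnfrsf25 second start: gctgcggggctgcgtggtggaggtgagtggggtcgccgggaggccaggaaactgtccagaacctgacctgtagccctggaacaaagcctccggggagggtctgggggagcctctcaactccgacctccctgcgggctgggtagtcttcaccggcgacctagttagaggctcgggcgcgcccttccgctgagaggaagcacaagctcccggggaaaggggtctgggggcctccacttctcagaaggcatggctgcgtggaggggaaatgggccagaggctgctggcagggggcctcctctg
Tnfrsf23: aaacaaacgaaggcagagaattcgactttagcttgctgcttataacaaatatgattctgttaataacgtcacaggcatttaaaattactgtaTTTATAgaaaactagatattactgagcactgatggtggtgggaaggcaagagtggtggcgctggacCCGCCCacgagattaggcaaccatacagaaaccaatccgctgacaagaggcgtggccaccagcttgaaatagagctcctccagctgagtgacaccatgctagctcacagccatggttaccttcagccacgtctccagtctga
Ltb: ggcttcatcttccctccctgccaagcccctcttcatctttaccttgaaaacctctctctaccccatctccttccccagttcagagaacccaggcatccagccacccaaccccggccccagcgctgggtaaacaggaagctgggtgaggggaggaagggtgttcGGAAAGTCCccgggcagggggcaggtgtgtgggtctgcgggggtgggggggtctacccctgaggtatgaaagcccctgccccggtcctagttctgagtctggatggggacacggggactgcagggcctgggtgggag
The first Tnfrsf25 window held 2 overlapping GC boxes, beginning 23 and 27 bases after the start, and the second held none of the 4 motifs. The 2 windows held 12 and 15 CpG dinucleotides, more than 60.4% and 65.4% of all windows, whose median was 7. The Tnfrsf23 and Ltb windows held 9 and 7. The Tnfrsf23 window held a GC box beginning 92 bases before the start and a TATA box beginning 158 bases before it, both on the opposite strand. The Ltb window held a kappa-B site on the opposite strand, beginning 87 bases before the start. Of 32851 windows of the same length, 35.7% held the GC box, 13.6% the TATA box, 0.344% the kappa-B letters and 5.2% the AP-1 letters. A window was given for 23 of the 30 member genes, 27 windows in all, of which 11 held the GC box, 4 the TATA box, 0 the kappa-B letters and 5 the AP-1 letters. These matches describe letters and do not locate a bound site.

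Levels are on the log2 scale, relative to the 75th percentile of all probes of the same array, so 0 is that percentile and each unit is a 2-fold step. Probes differ in brightness for the same amount of RNA, so a level was compared between the lines within a probe and not between probes. A probe was tested if, in ID8G or in GO2 cells, the scanner software marked both arrays as well above background, and it was called if the adjusted p (limma, Benjamini-Hochberg over all probes tested) was below 0.05 and the lines differed by at least 2-fold. The 75th percentile intensity ranged from 627 to 675, and 27502 to 28841 probes per array were well above background. Replicate arrays correlated at 0.997 in both lines, across probes, which are not independent replicates. Among 28368 probes tested, 4.50% were called higher and 3.34% lower in GO2 cells. Higher probes made up 57.4% of the calls, but 43.7% with the arrays scaled to their spike-in transcripts, which moved the median difference of all probes from -0.02 to -0.23. Of the epithelial and mesothelial markers checked against the origin of the line, Krt8, Krt18, Krt19, Msln and Wt1 were well above background on all 4 arrays, whereas Epcam and Krt7 were on none.

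Much of the family, above all the ligands, could not be measured in either line. Of the ligands, 2 of 10 genes had a probe that was tested, and the other 8 were well above background on none of the 4 arrays. Of the receptors, 13 of 20 genes were tested and 6 were well above background on no array. The plot of all probes by array shows the measured members beside those at the background.

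**Figure D1:**
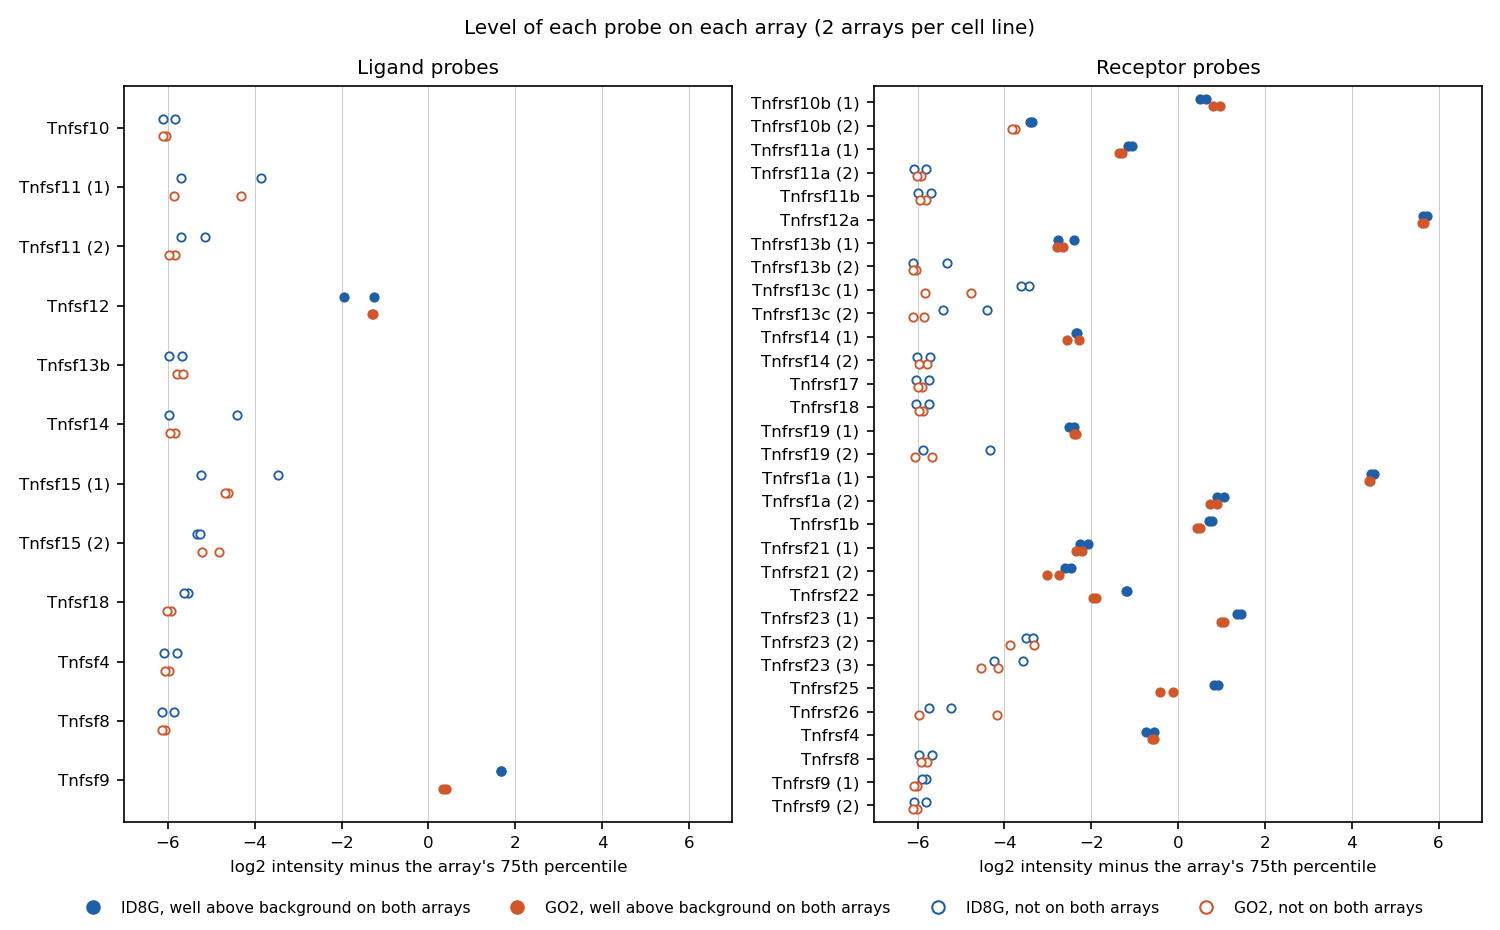
Level of each of the 12 ligand probes (left) and 31 receptor probes (right) on each array, as the log2 level relative to the array's 75th percentile, in ID8G (blue) and GO2 (orange) cells. Filled points mark a line in which the probe was well above background on both arrays, and numbers in brackets rank the probes of a gene by mean level. The Tnfsf9, Tnfrsf25 and Tnfrsf22 points of GO2 cells lie to the left of those of ID8G cells, and most ligand probes lie between -6.14 and -3.47 with open points.

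Among the ligands, Tnfsf9 was lower in GO2 cells and none was called higher. Tnfsf9 encodes 4-1BB ligand, which costimulates T cells and natural killer cells through Tnfrsf9. Its level was 1.67 and 1.68 in ID8G cells and 0.40 and 0.34 in GO2 cells. Both GO2 values lay below both ID8G values, by far more than the replicate arrays differed. The difference was -1.30 with an SE of 0.05 (95% interval -1.45 to -1.15), a 2.46-fold lower level in GO2 cells (adjusted p = 0.000551, limma). With Welch's t-test on the same values the adjusted p was 0.148. The paper names this test for its comparisons in general, and its array methods name no test. Tnfsf12 encodes TWEAK, a cytokine that acts through Fn14. Its level was -1.24 and -1.94 in ID8G cells and -1.30 and -1.27 in GO2 cells. The values overlapped, with the second ID8G array apart from the other 3. The difference was 0.31 with an SE of 0.25 (95% interval -0.37 to 0.99, adjusted p = 0.384, limma), and the value depends on which ID8G array is left out, at 0.66 (adjusted p = 0.0233) without ID8G replicate 1 and -0.042 (adjusted p = 0.713) without ID8G replicate 2.

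The ligands that were not tested were Tnfsf4 (OX40 ligand), Tnfsf8 (CD30 ligand), Tnfsf10 (TRAIL), Tnfsf11 (RANKL), Tnfsf13b (BAFF), Tnfsf14 (LIGHT), Tnfsf15 (TL1A) and Tnfsf18 (GITR ligand). Their 10 probes had levels from -6.14 to -3.47. The probe for Tnfsf10 was at -5.84 and -6.12 in ID8G cells and at -6.04 and -6.10 in GO2 cells, which overlapped at the level of the background. Where a probe was not well above background, a difference in the RNA was not detectable on these arrays.

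Among the receptors, Tnfrsf25 was lower in GO2 cells and none was called higher, so 1 of 13 receptor genes was called. Tnfrsf25 encodes DR3, a death domain receptor for TL1A that is known mainly from lymphocytes. Its level was 0.83 and 0.92 in ID8G cells and -0.41 and -0.11 in GO2 cells. Both GO2 arrays lay below both ID8G arrays. The difference was -1.13 with an SE of 0.12 (95% interval -1.46 to -0.81), a 2.20-fold lower level in GO2 cells (adjusted p = 0.00517, limma). It was just short of 2-fold, at -0.99, without GO2 replicate 1. Its adjusted p by Welch's t-test was 0.220. As RNA was taken from whole cultures, fewer cells with a transcript and less transcript per cell cannot be told apart. In all, 2 of the 18 tested probes of the family were called, both lower, beside 3.34% of all probes tested, and with so few probes nothing particular to the family is read from this.

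At the adjusted p alone, with no limit on the size, 5 of the 16 receptor probes were lower and 0 higher, beside 18.9% and 17.0% of all probes. One of the 5, for Tnfrsf10b, passed the background filter in ID8G cells only. The difference was below 0 for 13 of the 16 probes, with a median of -0.15, where the median over all probes was -0.02 and 53.2% of all probes were below 0. With spike-in scaling 15 of the 16 were below 0 and 8 passed, the receptor median was -0.35 and that of all probes -0.23. Tnfrsf22 and Tnfrsf23 encode mouse decoy receptors for TRAIL and lie next to each other on chromosome 7. Tnfrsf22 was at -1.20 and -1.17 in ID8G cells and at -1.96 and -1.89 in GO2 cells. It was lower by a difference of -0.74 with an SE of 0.06, 1.67-fold (adjusted p = 0.00223, limma). The brightest Tnfrsf23 probe was at 1.45 and 1.36 in ID8G cells and at 1.06 and 0.99 in GO2 cells. It was lower by a difference of -0.38 with an SE of 0.06, 1.30-fold (adjusted p = 0.0164, limma). The adjusted p of Tnfrsf23 was 0.0831 without ID8G replicate 1, 0.0675 without GO2 replicate 1, 0.0854 without GO2 replicate 2 and 0.111 with no filter on dim probes. Neither reached 2-fold, and the GO2 arrays of both lay below the ID8G arrays. By Welch's t-test the adjusted p was 0.158 for Tnfrsf22 and 0.170 for Tnfrsf23. The other 2 Tnfrsf23 probes were not tested, with levels between -4.55 and -3.32, and the probe sequences of these related genes were not compared here. Tnfrsf26, listed with the decoys but not paired with TRAIL here, was well above background on no array, nor was Tnfrsf11b, which encodes the soluble decoy osteoprotegerin.

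The death domain receptors other than Tnfrsf25 showed smaller differences. Tnfrsf10b encodes the mouse TRAIL death receptor, and its 2 probes moved in opposite directions. The brighter probe was at 0.50 and 0.65 in ID8G cells and at 0.80 and 0.96 in GO2 cells. The difference was 0.31 with an SE of 0.09 (adjusted p = 0.0689, limma), which did not pass. It ranged from 0.10 to 0.39 under the alternatives. This probe passed at the adjusted p with the intensity trend (0.0134, limma) and the replicate block (0.0385, limma), but not under the others. The dimmer probe was at -3.40 and -3.37 in ID8G cells and at -3.75 and -3.83 in GO2 cells, where it was not well above background. Its measured difference was -0.40, 1.32-fold lower in GO2 cells, and -0.12 with normexp background correction. This probe had passed the background filter through ID8G cells only, so its adjusted p is no support. No direction is therefore given for Tnfrsf10b. Tnfrsf1a encodes TNF receptor 1, the main death domain receptor of TNF. Its brighter probe was at 4.45 and 4.51 in ID8G cells and at 4.39 and 4.42 in GO2 cells, a difference of -0.08 (95% interval -0.23 to 0.08, adjusted p = 0.341, limma). Its other probe had a difference of -0.16 (adjusted p = 0.248, limma). Tnfrsf21 encodes DR6, and its 2 probes had differences of -0.12 (adjusted p = 0.359) and -0.35 (adjusted p = 0.0921, limma). Neither gene passed the test on either probe.

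**Figure D2:**
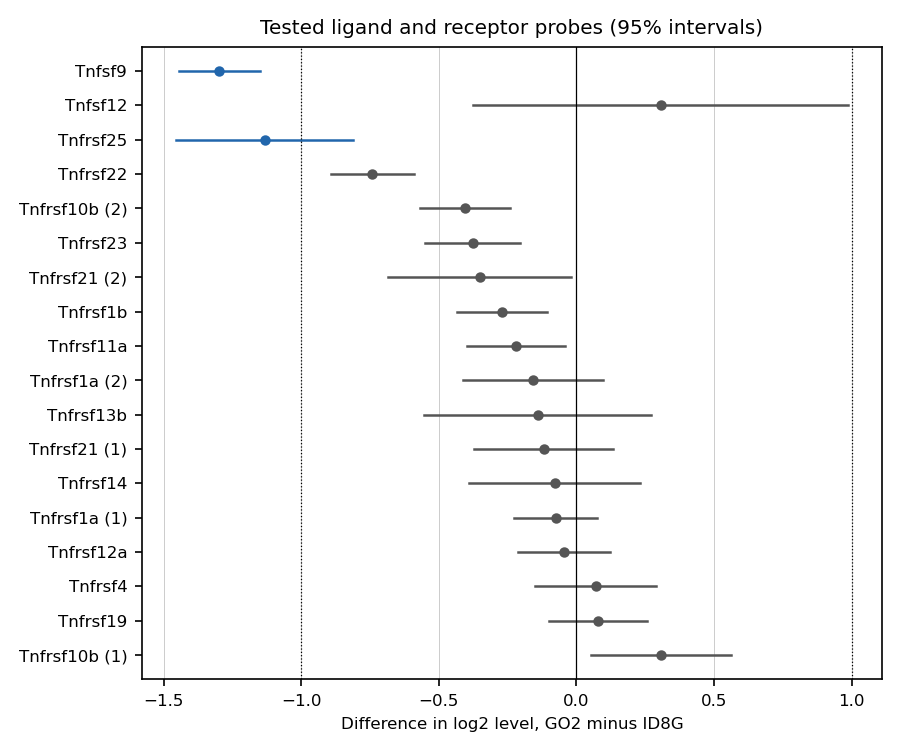
Difference in log2 level between GO2 and ID8G cells for each of the 18 tested probes of the family, with its 95% interval. Blue marks the called probes, dotted lines mark 2-fold, and numbers in brackets rank the probes of a gene by mean level. Tnfsf9 at -1.30 and Tnfrsf25 at -1.13 lie beyond 2-fold, and the next, Tnfrsf22, lies at -0.74.

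Of the tested receptors without a death domain that are not decoys, Tnfrsf1b passed at the adjusted p alone. It encodes TNF receptor 2, which responds best to membrane-bound TNF. Its level was 0.71 and 0.78 in ID8G cells and 0.50 and 0.44 in GO2 cells. The lines did not overlap, and the difference was -0.27 with an SE of 0.06, 1.21-fold lower in GO2 cells (adjusted p = 0.0335, limma). This did not hold with the replicate block (adjusted p = 0.0712), with no filter on dim probes (0.183), or without ID8G replicate 1 (0.0956), ID8G replicate 2 (0.135), GO2 replicate 1 (0.0992) or GO2 replicate 2 (0.140). By Welch's t-test the adjusted p of Tnfrsf1b was 0.178. Tnfrsf12a encodes Fn14, the receptor of TWEAK, which is induced by growth factors in many epithelial and mesenchymal cells. Its level was 5.74 and 5.64 in ID8G cells and 5.66 and 5.63 in GO2 cells. The values overlapped, and the difference of -0.05 had a 95% interval from -0.21 to 0.12 on the log2 scale (adjusted p = 0.592, limma). Tnfrsf11a encodes RANK, the receptor of RANKL. One of its 2 probes was tested, at -1.16 and -1.05 in ID8G cells and at -1.30 and -1.36 in GO2 cells. The difference of -0.22 did not pass (adjusted p = 0.0654, limma), and the other probe was at the background on all arrays.

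The remaining receptors are known mainly from lymphocytes or from development. Tnfrsf4 (OX40) had a difference of 0.07, Tnfrsf13b (TACI) of -0.14, Tnfrsf14 (HVEM) of -0.08 and Tnfrsf19 (TROY) of 0.08, with adjusted p from 0.389 to 0.618 (limma). The signs of these 4 are not settled, since each turned under at least 1 alternative. Tnfrsf13b, Tnfrsf14 and Tnfrsf19 each had a second probe at the background. Tnfrsf8 (CD30), Tnfrsf9 (4-1BB), Tnfrsf17 (BCMA) and Tnfrsf18 (GITR) were well above background on no array. For Tnfrsf13c, which encodes the BAFF receptor, 1 probe was well above background on 1 ID8G array. This probe was at -3.43 and -3.61 in ID8G cells and at -5.83 and -4.77 in GO2 cells, so the lines did not overlap, but it was not tested.

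Pairing ligands with their receptors, of 22 known pairs both partners were tested in 3, the receptor alone in 10, the ligand alone in 1 and neither in 6. In the other 2 the ligand had no probe. The pairs with both partners tested were Tnfsf12 with Tnfrsf12a, and Tnf with Tnfrsf1a and Tnfrsf1b. The pair with the ligand alone was Tnfsf9 with Tnfrsf9. The 2 probes for Tnfrsf9 were at -6.10 to -5.80 on the 4 arrays, so neither line had a measurable level of the receptor that corresponds to the ligand that was lower. Likewise, TL1A, the ligand of Tnfrsf25, was not measurable in either line, and its 2 probes had levels from -5.32 to -3.47. TRAIL, the ligand of Tnfrsf10b, Tnfrsf22 and Tnfrsf23, was also at the background.

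Ligands and receptors of the superfamily that go by other symbols were examined from a list of 15 genes. Of 7 such ligands 2 were tested, Ltb and Tnf. Ltb encodes lymphotoxin beta, which forms with lymphotoxin alpha the ligand of Ltbr. Its level was -5.81 and -6.10 in ID8G cells, not well above background, and -3.09 and -2.39 in GO2 cells. It was at least 1.92-fold higher in GO2 cells, a bound short of 2-fold. The measured difference, 3.22 as reported and 1.13 with normexp background correction, compares a signal with background, and the probe passed the filter through GO2 cells only, so its test is no support. Its partner Lta was at the background on all arrays. Tnf was at -2.23 and -2.09 in ID8G cells and at -2.07 and -2.09 in GO2 cells on 1 probe, a difference of 0.08 (adjusted p = 0.432, limma), and at the background on the other. Of 8 such receptors 4 were tested and 0 were called. Their 7 tested probes all had differences above 0, with a median of 0.20, where 53.2% of all probes were below 0, but with spike-in scaling 4 of the 7 lay below 0. At the adjusted p alone 1 of them, for Fas, passed, beside 17.0% of all probes that were higher, and 0 passed with median centering or spike-in scaling. Fas, the death receptor of Fas ligand, was at -1.12 and -1.10 in ID8G cells and at -0.91 and -0.90 in GO2 cells on this probe. The difference was 0.20 (adjusted p = 0.0426, limma). Ltbr was at 3.74 and 3.87 in ID8G cells and at 3.87 and 3.97 in GO2 cells, a difference of 0.11 that did not pass (adjusted p = 0.315, limma). Cd40, Cd27, Edar and Ngfr were well above background on no array.

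The genes listed as acting below the receptors were all measurable. Of 37 genes listed as intracellular mediators (mostly TRAF adaptors, death domain adaptors, kinases, inhibitors and NF-kappa-B subunits), all 37 were tested, with 63 probes. The list and its counts include Adam17, a protease of the cell membrane, which is not intracellular in this sense. Ripk3 was called higher and Nfkbie lower. Ripk3 encodes the kinase that phosphorylates Mlkl in necroptosis. Its level was -0.61 and -0.59 in ID8G cells and 1.89 and 1.71 in GO2 cells. The lines were far apart, with a difference of 2.40 and an SE of 0.08, 5.28-fold (adjusted p = 0.000393, limma). Nfkbie encodes I-kappa-B epsilon, an inhibitor of NF-kappa-B. Its level was 1.36 and 1.31 in ID8G cells and -0.02 and 0.18 in GO2 cells. The difference was -1.25 with an SE of 0.09, 2.38-fold lower in GO2 cells (adjusted p = 0.00182, limma).

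At the adjusted p alone, 15 of the 63 mediator probes were lower and 5 higher, beside 18.9% and 17.0% of all probes. Counted by the brightest probe of each gene, 10 genes were lower and 3 higher, and counted by any probe, 13 were lower and 4 higher. No share by gene was computed over all genes, so nothing particular to the mediators is read from these counts by gene. The median difference was -0.07. With spike-in scaling 30 of the 63 probes were lower and 1 higher at the adjusted p, and the median was -0.27 beside -0.23 for all probes. The mediators named next, other than Rela, Traf2, Chuk and Rbck1, were chosen after their values were seen. Nfkbia, which encodes I-kappa-B alpha, was at 3.42 and 3.39 in ID8G cells and at 3.00 and 2.94 in GO2 cells. Its difference was -0.43 (adjusted p = 0.00783, limma). Nfkb2, the precursor of p52, was lower on both probes, with differences of -0.36 and -0.32. Map3k14, the kinase NIK of the alternative NF-kappa-B pathway, had a difference of -0.62 (adjusted p = 0.0175, limma) on its brighter probe, and its other probe did not pass. Traf1, a TRAF adaptor, was at -3.31 and -3.40 in ID8G cells and not well above background in GO2 cells, at least 1.38-fold lower, and passed the filter through ID8G cells only. On their brightest probes, Ikbkb (-0.31), Birc2 (-0.25), Tradd (-0.28), Ripk1 (-0.24) and Traf4 (-0.28) were also lower at the adjusted p. Rnf31 (0.30) was higher. Their adjusted p ran from 0.0175 to 0.0326 (limma). The other Ikbkb probe did not pass (-0.24, adjusted p = 0.320, limma). The other Ripk1 probe went the other way and did not pass (0.13, adjusted p = 0.213, limma), so no direction is given for Ripk1. Genes of the NF-kappa-B pathway that did not pass included Nfkb1 (difference 0.02, adjusted p = 0.891) and Relb (-0.26, adjusted p = 0.0927 on its brighter probe). Tnfaip3 (0.10, adjusted p = 0.227) and Birc3 (-0.23, adjusted p = 0.369, limma) did not pass either. Cflar, the caspase-8 inhibitor c-FLIP, was lower on 2 of its 4 probes, with differences of -0.58 and -0.38. Traf5 was higher on both probes, by 0.49 and 0.43. The mediators with the brightest probes, Rela (0.21), Traf2 (0.13), Chuk (-0.05) and Rbck1 (-0.21), had differences that did not pass (adjusted p from 0.0918 to 0.546, limma). Mlkl, the substrate of Ripk3, had a difference of 0.11 (adjusted p = 0.198, limma), and Casp8, the caspase recruited by death domain receptors, of -0.10 (adjusted p = 0.316, limma).

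**Figure D3:**
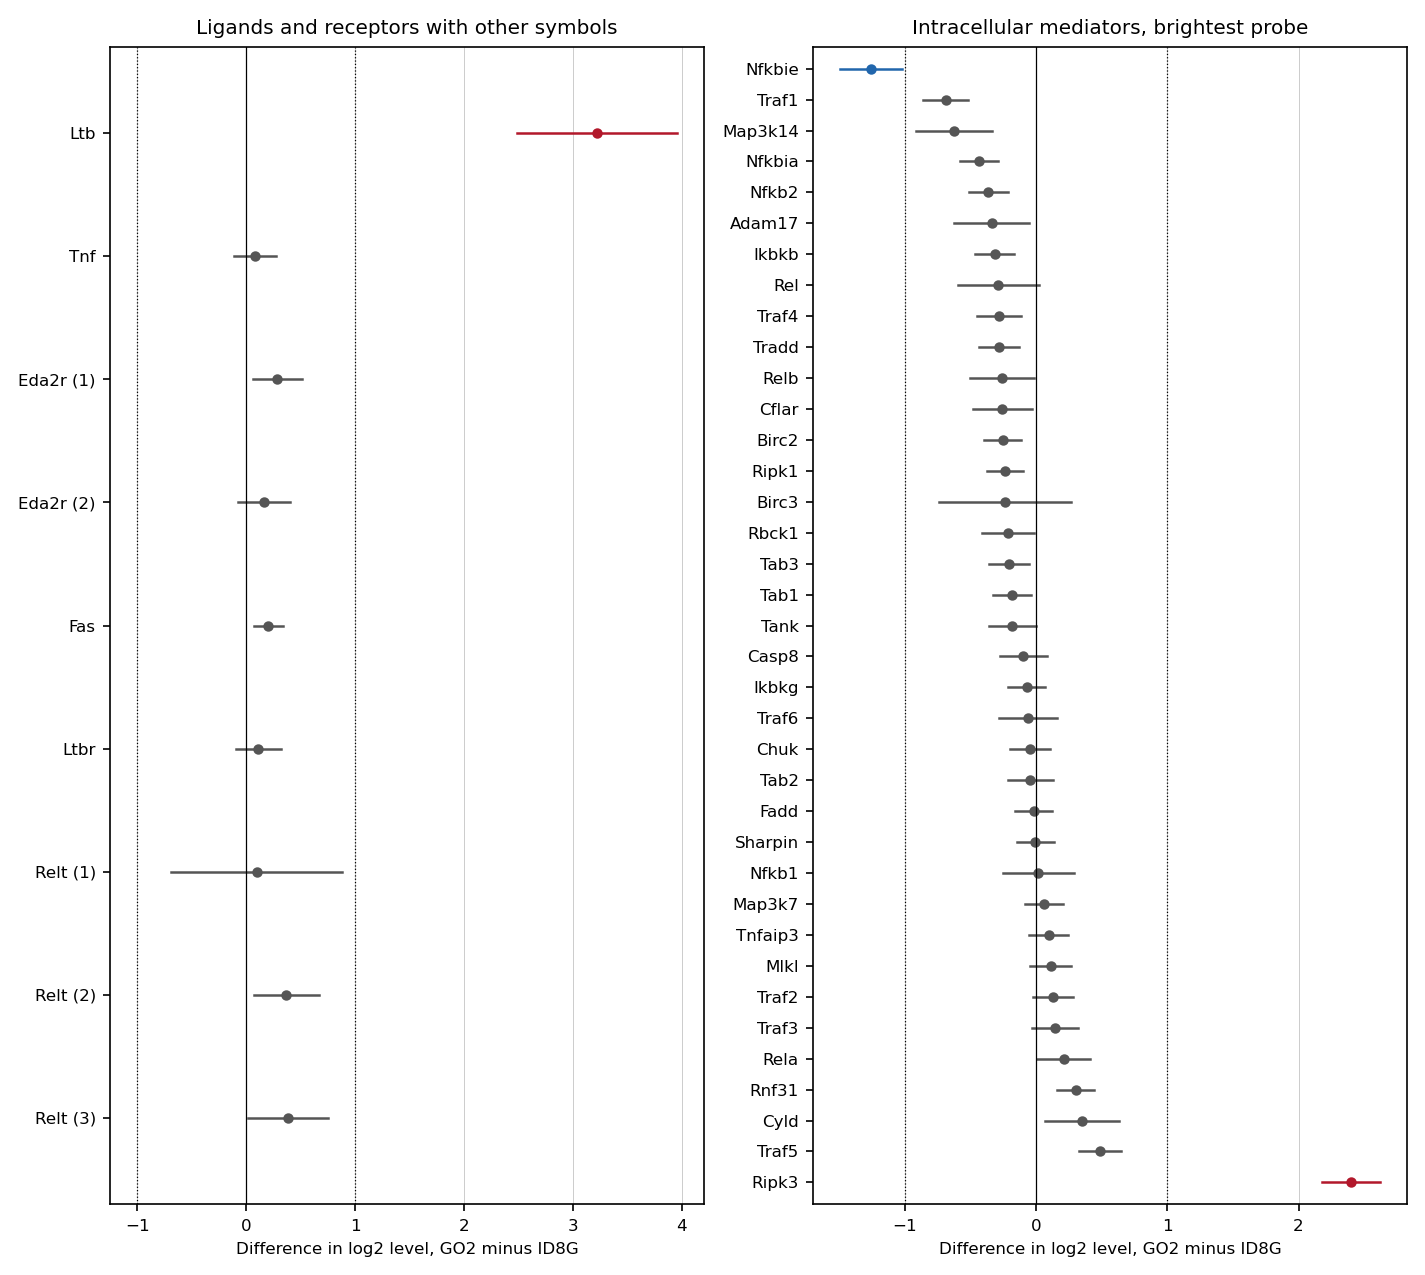
Difference in log2 level between GO2 and ID8G cells, with 95% intervals, for the tested probes of ligands and receptors with other symbols (left) and for the brightest probe of each of 37 intracellular mediators (right). Red marks probes called higher and blue probes called lower, dotted lines mark 2-fold, and numbers in brackets rank the probes of a gene. Ltb (3.22), whose ID8G level was not above background, and Ripk3 (2.40) stand apart on the higher side and Nfkbie (-1.25) on the lower side.

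The tested genes next to the members that differed were also read, 3 on each side by position, a choice made after the members' values were seen. Of the 6 around Tnfsf9 on chromosome 17, 2 were called, both lower, beside 3.34% of all probes. These were the nearest tested genes on either side, Gm11110 (difference -1.31) and C3 (-1.56), of which the latter encodes complement component 3. Genes without a tested probe were passed over, so neither need adjoin Tnfsf9. Of the 6 differences, 5 were below 0, beside 53.2% of all probes. Around Tnfrsf25 on chromosome 4, Espn was lower (-1.18), Gpr153, which was not well above background in ID8G cells, was called higher, and the other 4 were not called. Around Tnfrsf22 and Tnfrsf23 on chromosome 7, none of the tested neighbors was called, and Osbpl5, the next tested gene after Tnfrsf23, had a difference of 0.67. Whether neighboring genes change together was not tested.

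Since many of these ligands and receptors are made by immune cells, markers of other cell types were read on the same arrays. Of 9 macrophage marker genes, 4 were tested and 0 were called, and Ptprc, which encodes CD45, Adgre1, Cd163, Lyz2 and Mrc1 were well above background on no array. Of the 4 tested, Cd14 was lower at the adjusted p alone, with a difference of -0.69 on its brightest probe. On their brightest probes, Csf1r (0.22), Cd68 (0.19) and Itgam (-0.13) did not pass. This Itgam probe was at 4.13 to 4.39 on the 4 arrays, but a second was at -3.93 to -3.32 and was not tested. The second Cd68 probe was not tested either. Of the lymphocyte marker genes, Cd3g, Cd8a, Cd79a, Ms4a1 and Ncr1 were likewise on no array. Cd3e and Cd4 were tested and not called, with differences of 0.18 and -0.07 on their brightest probes. The second Cd3e probe had a difference of 0.30 (adjusted p = 0.0489, limma), and the second Cd4 probe was not tested. Of 4 endothelial marker genes, Pecam1 was tested and not called. Of 7 fibroblast marker genes, 4 were tested and 3 called higher, Fn1 (difference 1.55 on its brightest probe), Pdgfra (3.70) and Pdgfrb (at least 2.42-fold, with the filter passed through GO2 cells only), while Dcn was lower (-0.63) and Fap, Lum and Thy1 were at the background. Of 8 epithelial and mesothelial marker genes, 6 were tested, with Upk3b higher (1.08) and Krt19 lower (-1.65). Krt18 (-0.81), Msln (-0.82) and Krt8 (-0.55) were also lower at the adjusted p alone, and Wt1 (-0.10) did not pass. Over all probes tested, 4.50% were called higher and 3.34% lower. At the adjusted p alone, 17.0% of all probes were higher and 18.9% lower. The part of these markers in the differences of the family was not tested.

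**Figure D4:**
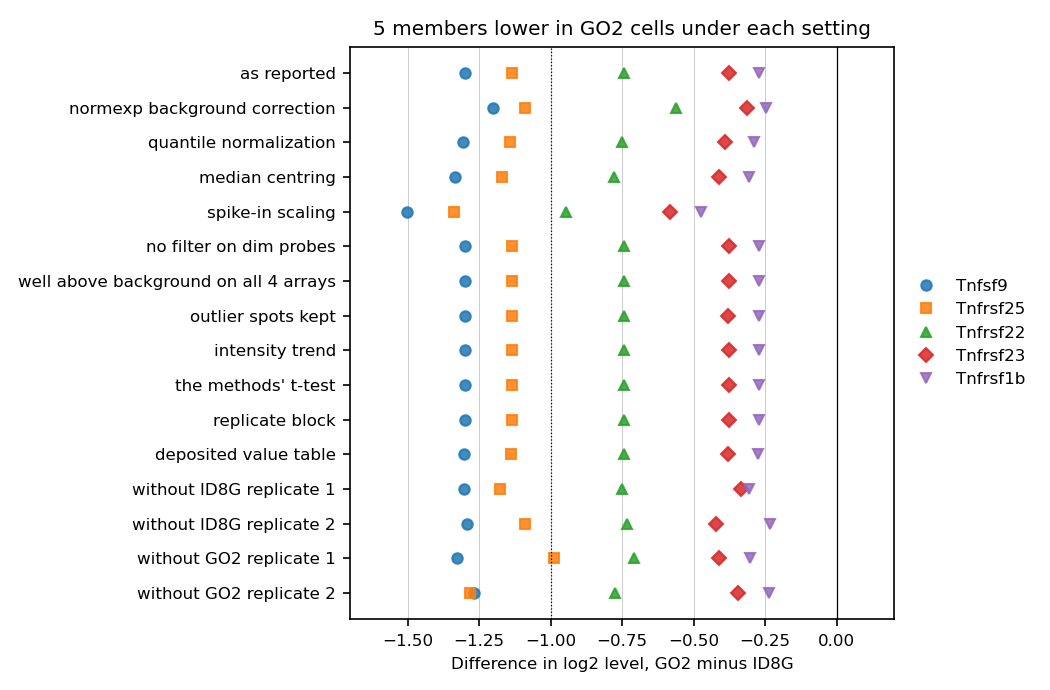
Difference in log2 level between GO2 and ID8G cells for Tnfsf9, Tnfrsf25, Tnfrsf22, Tnfrsf23 and Tnfrsf1b as reported and under each of 15 alternatives. The dotted line marks 2-fold. All points lie below 0, Tnfsf9 between -1.50 and -1.20, and Tnfrsf25 between -1.34 and -0.99.

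The plot of the settings gives the spread of the 5 brightest-probe differences that passed at the adjusted p as reported. Tnfsf9 was called under 14 of 15 alternatives and Tnfrsf25 under 13. The difference of Tnfrsf22 ranged from -0.95 to -0.56, that of Tnfrsf23 from -0.58 to -0.31 and that of Tnfrsf1b from -0.48 to -0.23, all on the log2 scale, and none of them reached 2-fold under any alternative.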

How the data were processed

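RNA of ID8G and GO2 cells was measured on 4 Agilent arrays with 1 color, 2 per cell line, on 1 slide in 1 scan, and the number of arrays limits the precision. The authors deposited the linear intensity of each spot from Feature Extraction 11.5.1.1, whose background correction had been applied but no normalization between arrays, along with marks for outliers, saturation and signal well above background. A second deposited table gives log2 values, scaled to the 75th percentile with every probe's median over the arrays set to 0, and served for 1 alternative. Of the per-sample columns, 0 were left unused.

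Spots marked as outliers were left out, spots of a probe were averaged, and each array's 75th percentile, taken over the 56605 non-control probes, was subtracted on the log2 scale. A model of cell line alone was fitted by limma 3.58.1 (R 4.3.3). Two-sided p-values were adjusted over the 28368 probes tested, 50.1% of all. No member spot was an outlier or saturated. Where neither array of a line was well above background, the fold is a bound against the lowest signal well above background on each array. Where the probe's own signal was higher, it was used instead, so for Tnfrsf10b the fold is the measured one. The brightest probe stands for a gene's level, and a gene counts as called where any of its probes is. With 2 arrays against 2, an exact permutation test cannot go below p = 0.333.

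Symbols came from RefSeq accessions through a table for GRCm38.p6, which named 32994 probes (58.3%). The arrays were designed on mm9, and no coordinate is given for a probe. Members, lists and pairs were chosen with earlier results of these data known. Any member could be named, and from each other list the called genes and up to 4 with the highest level. Some genes outside this rule are named too, such as listed genes at the background. Only the further mediators and the neighbors are marked in the text as chosen after values were seen. Replicate numbers did not pair the arrays (correlation of replicate differences 0.03).

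Alternatives were normexp (offset 50), quantile normalization, median centering, spike-in scaling, no filter, a filter on all 4 arrays and outlier spots kept. Further ones were an intensity trend, Welch's t-test, a replicate block, the deposited table and each array left out. The plot of the settings labels Welch's t-test as the methods' t-test. Spot and background medians entered normexp, in place of the planned spot means. The procedure was tested on simulated data. One marker gene is not reported here.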

Additional observations from a re-analysis of the deposited data

How the results depend on the processing

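Tnfsf9 and Tnfrsf25 kept their direction under all 15 alternatives, and 0 ligand and 0 receptor genes were called higher under any of them. With Welch's t-test, which the paper's array methods do not name, 0 probes were called higher and 3 lower. By this test 0 ligand and 0 receptor genes were called. Its adjusted p was 0.148 for Tnfsf9, 0.220 for Tnfrsf25, 0.186 for Nfkbie and 0.165 for Ripk3. At an unadjusted p below 0.05 it gave 3377 probes higher and 3599 lower (6379 and 7283 with limma). The probes called higher and lower were 1277 and 947 as reported, 818 and 517 with normexp, 1107 and 1428 with spike-in scaling, and 666 and 606 with signal well above background required on all 4 arrays, where fewer probes were tested and Ltb was left out. With 1 array left out, assuming that the lone array varies like the other line, probes called higher ranged from 1288 to 1628, probes called lower from 913 to 1408, receptor genes called lower from 0 to 1 and ligand genes called lower from 1 to 1. The 0 came without GO2 replicate 1. Higher probes made up 47.8% of the calls without ID8G replicate 1 and 64.1% without GO2 replicate 1. With the replicate block, 1251 probes were called higher and 936 lower, and the counts of ligand genes (1) and receptor genes (1) called lower did not change. The signs that turned belonged to differences that did not pass the test. These were Tnfrsf19 (-0.13) and Tnfrsf4 (-0.13) with spike-in scaling. With each array left out in turn, the difference of Tnfsf12 ranged from -0.042 (without ID8G replicate 2) to 0.66, and those of Tnfrsf12a from -0.094 to 0.0032, Tnfrsf13b from -0.33 to 0.050 and Tnfrsf4 from -0.019 to 0.16, with the turned sign without ID8G replicate 1. That of Tnfrsf14 ranged from -0.22 to 0.067, above 0 without GO2 replicate 1. The cause of these changes was not tested. Of the values for single genes under the alternatives, 300 kept their direction and side of the threshold, 6 lost the call and 7 turned. The slide or scan as a block could not be run, since there was 1 slide and 1 scan.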
